A study of Saccharomyces cerevisiae with 222 samples.

Results

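Budding yeast carrying a degron-tagged copy of the repressor Ume6 was compared with untagged wild type (WT) in libraries collected before auxin was added to the tagged strain. The comparison used 6 of the 222 RNA libraries of the series, chosen by their labels: the 3 libraries of the tagged control strain at the −30 min point, against the 3 libraries with an unmodified UME6 gene. The question it answers is whether transcript levels in the strain that served as the control for Ume6 depletion were those of WT. Of 5818 genes in the table, 5488 had enough reads to be tested.

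The tagged strain, called UME6-AID here, had the genotype UME6-AID-3V5; LexA-ER-B112. Its only UME6 copy carried a C-terminal auxin-inducible degron (a plant-derived peptide that lets the F-box protein OsTIR1 mark Ume6 for degradation when auxin is present) and a V5 epitope, at the native locus. It also carried LexA-ER-B112, a transcription factor activated by ß-estradiol, expressed from the GPD1 promoter at TRP1, but no OsTIR1 gene. WT had the genotype UME6, with TRP1 and HIS3 restored by plain marker genes. Both were haploid MATa cells of the SK1 background in the study's strain list, and each is a single isolate, so the replicates cannot measure the spread between isolates. No library carried the tag without LexA-ER-B112, so the tag, the LexA protein and any other difference between the isolates cannot be told apart. A difference in the state of the cultures at harvest cannot be told apart from these either. The −30 min point is when ß-estradiol was added to log-phase cultures in rich medium; the study describes WT as collected from such cultures before any chemical, while the labels list −30 min together with ß-estradiol and auxin for it. Other groups are set beside the comparison. UME6-AID LexO-TIR at −30 min is a separate strain with the same tag and LexA construct, plus OsTIR1 behind LexA operators. In ume6Δ, UME6 is deleted. UME6-AID at 0 min is 30 min later, after ß-estradiol.

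Ume6 is a zinc-cluster DNA-binding protein that recognises the URS1 element, with the core GGCGGC, in the promoters of early meiotic and some metabolic genes. In dividing cells it recruits the histone deacetylase complex Sin3-Rpd3 and the chromatin remodeller Isw2 and keeps those genes off, and in cells entering meiosis the inducer Ime1 binds Ume6 and turns it into an activator. Loss of Ume6 from dividing cells is therefore known for the appearance of meiotic transcripts.

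Genes that the study lists as Ume6 targets were mostly higher in UME6-AID than in WT before treatment. Of the 144 targets, all tested, 91 were higher and 10 lower at an adjusted p below 0.05 (edgeR quasi-likelihood test, adjusted over all genes tested), with a median log2 fold change of 0.71. Over all 5488 genes, 21.0% were higher and 18.8% lower, and the median was 0.00. The study chose these targets from Ume6 depletion after auxin, with a Ume6 binding peak, so their choice used other libraries of the same strains and UME6 is itself a member. The shift in the targets was smaller than in ume6Δ, where the median log2 fold change of the 144 over WT was 1.98. For the 132 targets called higher in ume6Δ, the level in UME6-AID was a median of 33.4% of that in ume6Δ, and in WT 18.7%. Picking targets that were higher in ume6Δ than in WT lowers these percentages in part. The ume6Δ libraries also carried mating-type markers that went against their MATa entry.

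The URS1 core was sought as GGCGGC on either strand, from 250 bases before to 50 bases after the start codon, in the S288C reference (build R64) because the SK1 sequence used by the authors was not used here. It was present in 42 of the 91 targets called higher (46.2%), in 24.5% of the targets not called higher, and in 4.70% of all 5357 tested genes with a window. The 30 bases around the match are shown for some of the targets whose levels are given in the paragraphs on recombination, synapsis and metabolism. They are written 5′ to 3′ on the strand of the gene, with the core or its complement in capitals.
HOP2: gattatgtcctcGGCGGCtaaattttccat
REC8: gaacttgacttcGGCGGCaaaccaatatat
HED1: tttattaagataGCCGCCcaggttaaattc
MEI5: gaaaaagtattaGCCGCCcaaacttctatg
ZIP1: taaaataccctcGGCGGCtaaatttttaga
PCH2: gacaataaggtgGGCGGCaaatctacgaaa
REC104: cgcacaatatttGGCGGCtattttccgcta
INO1: cacctctgcgttGGCGGCaatgttaatttg
They lie upstream of the coding sequence at chrVII:435484-435513 (HOP2, plus strand), chrXVI:571545-571574 (REC8, minus), chrIV:477717-477746 (HED1, plus), chrXVI:321739-321768 (MEI5, minus), chrIV:1032404-1032433 (ZIP1, plus), chrII:600446-600475 (PCH2, plus), chrVIII:412804-412833 (REC104, plus) and chrX:136062-136091 (INO1, minus). In the sequences shown, the core starts between 20 bases (ZIP1) and 184 bases (REC8) before the start codon. BTN2, not shown, had a match 242 bases before it. No match was in this window for ECM11, AMA1, SPO11, IME2, CRC1 or JEN1. A match is a description of letters in S288C, and binding in these strains was not measured by it. Among genes that are not targets, 6.09% of those called higher held the core, against 3.78% of all such genes.

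Sequencing depth differed between libraries. UME6-AID libraries held 20789730, 4603815 and 7239226 estimated counts, and WT libraries 9981778, 9164968 and 6305331. Spearman correlation of gene levels was 0.962 to 0.980 within UME6-AID, 0.983 to 0.997 within WT and 0.945 to 0.971 between them. UME6-AID replicate 1, the deepest library, also held 30.3 CPM (counts scaled to the library total) in genes without a coding sequence, against at most 2.25 in the other libraries compared here, and WT replicate 3 stood apart from the other WT libraries. With UME6-AID replicate 1 left out 84 targets were higher and 9 lower, with WT replicate 3 left out 89 and 11, and with both left out 82 and 10. All 6 libraries carried the markers of a-cells: the receptor gene STE2 had 541, 680 and 627 TPM (a transcript's share of all transcripts, scaled for length) in UME6-AID, against 602, 638 and 667 TPM in WT, while the α-cell gene MF(ALPHA)1 was below 0.9 TPM in all 6. The cultures were read in bulk, so fewer cells expressing a gene and less RNA per cell cannot be told apart.

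The altered loci were read as a check of the labels. UME6 had 87.2, 97.9 and 98.5 TPM in UME6-AID, against 36.5, 34.9 and 35.0 TPM in WT, a log2 fold change of 1.36 ± 0.11 (SE; adjusted p = 5.51e-12). All tagged libraries were above all WT libraries, and the mean in ume6Δ was 0.239 TPM, so the tagged allele gave 2.67 times the WT transcript level and the deletion almost none. Reads across the tag itself were not analysed here, and protein was not measured in these files. TRP1, the locus that holds LexA-ER-B112, had 28.0, 34.9 and 29.2 TPM in UME6-AID, against 44.2, 42.3 and 42.3 TPM in WT (log2 fold change −0.54 ± 0.14, adjusted p = 0.00185). HIS3 was listed at 0 in all 42 libraries of the mitotic experiment. URA3 had 66.4, 58.6 and 55.0 TPM in UME6-AID, against 24.8, 27.5 and 24.1 TPM in WT, while the −0.34 of LEU2 did not pass without UME6-AID replicate 2 or 3 or WT replicate 3.

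Neighbours of these loci did not move in 1 direction. EBS1 next to UME6 averaged 57.2 ± 6.18 TPM in UME6-AID and 63.5 ± 5.90 TPM in WT (SD, n = 3 each), with a log2 fold change of −0.21, overlapping libraries and an adjusted p of 0.0427 that was 0.145, 0.115 and 0.305 without UME6-AID replicate 1, UME6-AID replicate 2 or WT replicate 3. MSS4 on its other side averaged 63.0 TPM in UME6-AID and 72.5 TPM in WT, a log2 fold change of −0.26 that passed the test (adjusted p = 0.00154), but not with limma on either TPM scale (adjusted p = 0.121 and 0.120). Near TRP1, SOK1 rose by 0.45 on the log2 scale, while SNQ2 was at −0.02 and did not pass. DED1 beside HIS3 had 339, 180 and 201 TPM in UME6-AID and 118, 121 and 149 TPM in WT (log2 fold change 0.88, adjusted p = 0.0371). That call was lost without UME6-AID replicate 1 (log2 fold change 0.45, adjusted p = 0.347) and without WT replicate 1 or 2 (adjusted p = 0.112 and 0.105). MRM1, on the other side of HIS3, was at −0.10 and did not pass.

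Several targets that were higher act in meiotic recombination. HOP2, which with Mnd1 helps homologous chromosomes pair, had 4.28, 14.9 and 6.14 TPM in UME6-AID, against 0.637, 0.350 and 1.10 TPM in WT (log2 fold change 3.37 ± 0.54, adjusted p = 7.32e-06). Replicate 2 was the highest of the UME6-AID libraries. HED1, a meiosis-specific recombination protein, had 9.39, 10.9 and 9.70 TPM in UME6-AID, against 2.10, 1.79 and 0.403 TPM in WT (2.59 ± 0.34). MEI5, a partner of the meiotic recombinase Dmc1, had 2.64, 2.84 and 2.34 TPM in UME6-AID, against 0.303, 0.834 and 0 TPM in WT (2.55 ± 0.64, and 3.60 without WT replicate 2). SPO11, whose product cuts DNA to start meiotic recombination, had 4.64, 5.38 and 5.03 TPM in UME6-AID, against 0.741, 1.47 and 1.54 TPM in WT (2.00 ± 0.24). REC104, a partner of Spo11 in DNA cutting, had 15.5, 24.9 and 12.5 TPM in UME6-AID, against 4.93, 7.15 and 3.75 TPM in WT (1.60 ± 0.26). Of the 23 genes on the list of DNA break formation and recombination, 13 were higher (56.5%) and 2 lower (8.7%), with a median of 0.35. Over all genes tested these shares were 21.0% and 18.8%. SAE3, the other Dmc1 partner, had 3.26, 5.58 and 3.68 TPM in UME6-AID against 1.79, 0 and 0 TPM in WT and did not pass the test (adjusted p = 0.112), but did with DESeq2 (adjusted p = 0.0356) and with limma on log2(TPM + 1) and log2(TPM + 0.1) (adjusted p = 0.0154 and 0.00535).

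Genes of the meiotic chromosome axis and of synapsis rose in 15 of 19 cases, with none lower and a median of 0.91. Over all genes tested the shares were 21.0% and 18.8%. Without UME6-AID replicate 1, 13 were higher and none lower, with a median of 1.22. Without UME6-AID replicate 2, 11 were higher and 1 lower, with a median of 0.68. REC8, the meiotic cohesin subunit, had 5.85, 8.22 and 6.17 TPM in UME6-AID, against 0.979, 0.673 and 0.917 TPM in WT (log2 fold change 2.90 ± 0.20, adjusted p = 4.60e-13). ECM11, part of the central element of the synaptonemal complex, had 1.94, 4.32 and 1.90 TPM in UME6-AID, against 0.307, 0.113 and 0.177 TPM in WT (3.42 ± 0.59), the largest value among the targets. ZIP1, the transverse filament of that complex, had 10.8, 17.2 and 12 TPM in UME6-AID, against 4.79, 4.04 and 3.23 TPM in WT (1.62 ± 0.19, adjusted p = 4.70e-08). PCH2, a meiotic checkpoint ATPase, had 13.2, 23.1 and 15.0 TPM in UME6-AID, against 6.41, 5.39 and 6.15 TPM in WT (1.41 ± 0.17). REC8, ZIP1 and PCH2 did not overlap between the groups, which held for 21.5% of all genes tested in this direction and 18.8% in the other. ECM11 is among the largest rises, for which lack of overlap was a condition. GMC2, the partner of Ecm11, was at 2.60 and MEK1, the meiotic checkpoint kinase, at 1.92 on the same scale. MSH5, a crossover factor of the same list, had 5.75, 10.5 and 7.40 TPM in UME6-AID and 9.02, 9.63 and 7.78 TPM in WT, overlapped and did not pass (adjusted p = 0.0951, and 0.0146 without UME6-AID replicate 2, with a log2 fold change of −0.43).

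**Figure D1:**
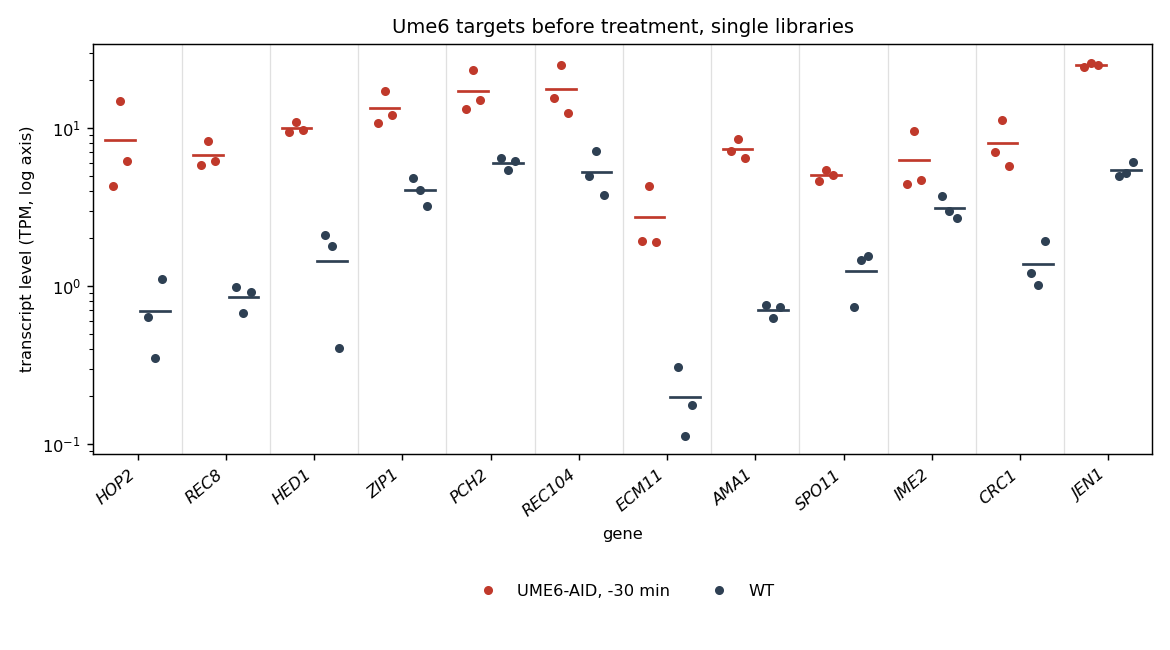
Transcript levels (TPM, log axis) of 12 Ume6 targets in the 3 UME6-AID libraries at −30 min (left of each pair) and the 3 WT libraries (right); each point is a library and each line a mean. All UME6-AID points lie above all WT points for each gene shown, with the smallest gap at IME2. HOP2 and ECM11 are among the 12 largest rises, for which lack of overlap was a condition.

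Of 13 regulators of meiotic entry 7 were higher (53.8%) and none lower, against 21.0% and 18.8% of all genes, with a median of 0.37. IME2, the kinase that drives early meiosis, had 4.43, 9.61 and 4.67 TPM in UME6-AID, against 3.72, 2.99 and 2.69 TPM in WT (log2 fold change 0.80 ± 0.21, adjusted p = 0.00285, and 0.0511 with only the 2 groups in the fit). UME6-AID stood at 9.82% of the mean level in ume6Δ. RIM4, an RNA-binding translational repressor, was at 0.82 and SLZ1, a subunit of the mRNA methylation complex, at 1.07 (adjusted p = 0.00428, and 0.0583 with only the 2 groups). KAR4, a transcription factor of mating and meiosis, had 51.3, 54.9 and 59.7 TPM in UME6-AID, against 33.0, 27.7 and 29.0 TPM in WT (0.84 ± 0.09). IME1, the master inducer of meiosis, had 8.90, 14.8 and 9.50 TPM in UME6-AID and 10.6, 8.33 and 8.78 TPM in WT, overlapped, and did not pass (log2 fold change 0.16, adjusted p = 0.548). NDT80, the activator of mid-meiotic genes, had 8.92, 12.9 and 10.8 TPM in UME6-AID, against 7.35, 7.30 and 8.94 TPM in WT (0.40 ± 0.15, adjusted p = 0.0265), a call lost without UME6-AID replicate 2 or 3 or WT replicate 1 or 2 (adjusted p = 0.0791, 0.0650, 0.108 and 0.112).

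Genes that sporulating cells use later were also higher in part: 18 of 36 rose (50.0%) and 1 fell (2.78%), with a median of 1.0. The shares over all genes tested were 21.0% and 18.8%. The median of this list was 0.59 to 1.18 under the alternatives run. GAS2, a spore-wall glucan remodelling enzyme, had 15.9, 20.8 and 17.5 TPM in UME6-AID, against 1.17, 1.40 and 1.94 TPM in WT (log2 fold change 3.57 ± 0.16, adjusted p = 4.25e-18). AMA1, a meiosis-specific activator of the anaphase-promoting complex and itself a Ume6 target, had 7.19, 8.54 and 6.43 TPM in UME6-AID, against 0.758, 0.625 and 0.737 TPM in WT (3.33 ± 0.18). SPS1, a kinase of spore formation, had 14.6, 16.2 and 12.7 TPM in UME6-AID, against 2.75, 2.32 and 2.12 TPM in WT, while ume6Δ averaged 3.31 TPM. GAS2 and SPS1 are not among the targets. SMK1, a mid-meiotic kinase of spore formation, and SPS100, a late spore-wall protein, were at 0.33 and −0.09 and did not pass, though SMK1 passed without UME6-AID replicate 2 or WT replicate 3 (adjusted p = 0.0390 and 0.0244).

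Some of the targets that were higher have roles in metabolism or protein sorting. CRC1, the mitochondrial carnitine carrier, had 7.05, 11.3 and 5.75 TPM in UME6-AID, against 1.21, 1.02 and 1.93 TPM in WT (log2 fold change 2.50 ± 0.28, adjusted p = 1.54e-08), and UME6-AID stood at 4.50% of the ume6Δ level. YAT1, a carnitine acetyltransferase outside the target list, was at 2.67 and CAT2, the main carnitine acetyltransferase, at 0.95. In the carnitine shuttle 4 of 5 genes were higher and none lower, against 21.0% and 18.8% of all genes. JEN1, the lactate and pyruvate permease, had 24.3, 25.9 and 25.2 TPM in UME6-AID, against 5.00, 5.15 and 6.05 TPM in WT (2.19 ± 0.15), which was 70.0% of the ume6Δ level. INO1, the enzyme of inositol synthesis, had 14.9, 15.0 and 15.7 TPM in UME6-AID, against 6.45, 5.80 and 6.54 TPM in WT (1.25 ± 0.15). BTN2, a chaperone that sorts misfolded proteins, had 86.7, 138 and 93.2 TPM in UME6-AID, against 30.5, 27.2 and 21.7 TPM in WT (1.91 ± 0.13), above its mean in ume6Δ. FDH1, formate dehydrogenase, has 2 near-identical copies in the table whose reads may be split: the copy outside the target list was at 3.65, and the copy counted as the target was at 0.36 and did not pass, except without WT replicate 3 (0.65, adjusted p = 0.0281).

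The 10 targets that fell did so by at most 0.75 on the log2 scale. PST1, a cell-wall protein, had 66.2, 75.8 and 72.6 TPM in UME6-AID, against 111, 93.8 and 108 TPM in WT (−0.60 ± 0.09). SAS2, a histone acetyltransferase, had 13.4, 19.5 and 14.5 TPM in UME6-AID, against 25.2, 24.2 and 21.5 TPM in WT (−0.67 ± 0.12). PRX1, a mitochondrial peroxiredoxin, had 27.7, 27.6 and 29.5 TPM in UME6-AID, against 38.7, 43.3 and 56.6 TPM in WT (−0.72 ± 0.16). The others were POL31, PDR16, YGR079W, RTS2, SUE1, CIS1 and YPL077C, at −0.28 to −0.75. Of these 7 only YPL077C kept its call whichever library was left out. POL31 and YGR079W lost it without UME6-AID replicate 2 (adjusted p = 0.0599 and 0.0560), PDR16 without WT replicate 1 (0.0642), and RTS2, SUE1 and CIS1 without any of 3 or 4 of the libraries (0.0503 to 0.178). Over all 144 targets the quartiles were 0.18 and 1.15, 121 values were positive, and 45 were called with a log2 fold change over 1. By the way Ume6 acts at the promoter in the study's classification, 87 of 130 targets with a promoter of the coding transcript were higher and 10 lower. With an antisense promoter 3 of 6 were higher, and with a promoter for a long undecoded transcript isoform 1 of 7 (14.3%). None was lower in the last 2 classes. All genes tested stood at 21.0% higher and 18.8% lower.

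Of 21 corepressor and partner genes of Ume6, 3 were higher and 3 lower (14.3% each), no larger a share than the 21.0% and 18.8% of all genes, and SIN3, RPD3 and ISW2 were among the 15 that did not pass. DEP1, a subunit of the Rpd3 complex, had 94.8, 97.6 and 93.3 TPM in UME6-AID, against 63.1, 64.4 and 59.0 TPM in WT (log2 fold change 0.57 ± 0.12). RIM15, a kinase of nutrient signalling, had 35.4, 37.4 and 39.8 TPM in UME6-AID, against 17.5, 18.2 and 23.1 TPM in WT (0.89 ± 0.11), and XBP1, a stress-induced repressor, was at 0.91. ASH1, a daughter-cell repressor, fell by 0.48.

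Most of the genes that moved were not targets: of the 5344 other genes, 1064 were higher and 1023 lower. At a log2 fold change past 0.6 as well as the adjusted p, 576 of all genes tested were higher (10.5%) and 196 lower (3.57%). Genes for growth on carbon sources other than glucose, targets and others alike, were higher in 16 of 19 cases, none lower, with a median of 1.35. ICL2, a methylisocitrate lyase, had 18.6, 28.6 and 19.1 TPM in UME6-AID, against 1.81, 1.67 and 2.63 TPM in WT (log2 fold change 3.40 ± 0.21, adjusted p = 4.05e-14). MDH2, the cytosolic malate dehydrogenase of gluconeogenesis, had 273, 269 and 263 TPM in UME6-AID, against 40.3, 40.6 and 42.5 TPM in WT (2.67 ± 0.42), with 47.2, 40.5 and 44.0 TPM in ume6Δ. MLS1, malate synthase, was at 2.72, PCK1, phosphoenolpyruvate carboxykinase, at 2.49, and the target ALD4, a mitochondrial aldehyde dehydrogenase, at 1.75. The regulators of these genes were higher as well, with ADR1 at 1.35 and the targets SIP4 at 1.39 and CAT8 at 1.03. HAP4, the inducible subunit of the activator of respiratory genes, had 238, 318 and 253 TPM in UME6-AID, against 87.2, 91.6 and 74.3 TPM in WT (1.62 ± 0.18). Of the 38 genes on the respiratory chain list, 2 were higher, HAP4 among them, 13 were lower and 23 were not called, with a median of −0.24. By adjusted p alone, 21.0% of all genes tested were higher and 18.8% lower. CYC1, cytochrome c, had 1500, 1360 and 1660 TPM in UME6-AID, against 3640, 4260 and 2870 TPM in WT (−1.29 ± 0.14). COX6 fell by 0.67 and ATP14 by 0.87.

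**Figure D2:**
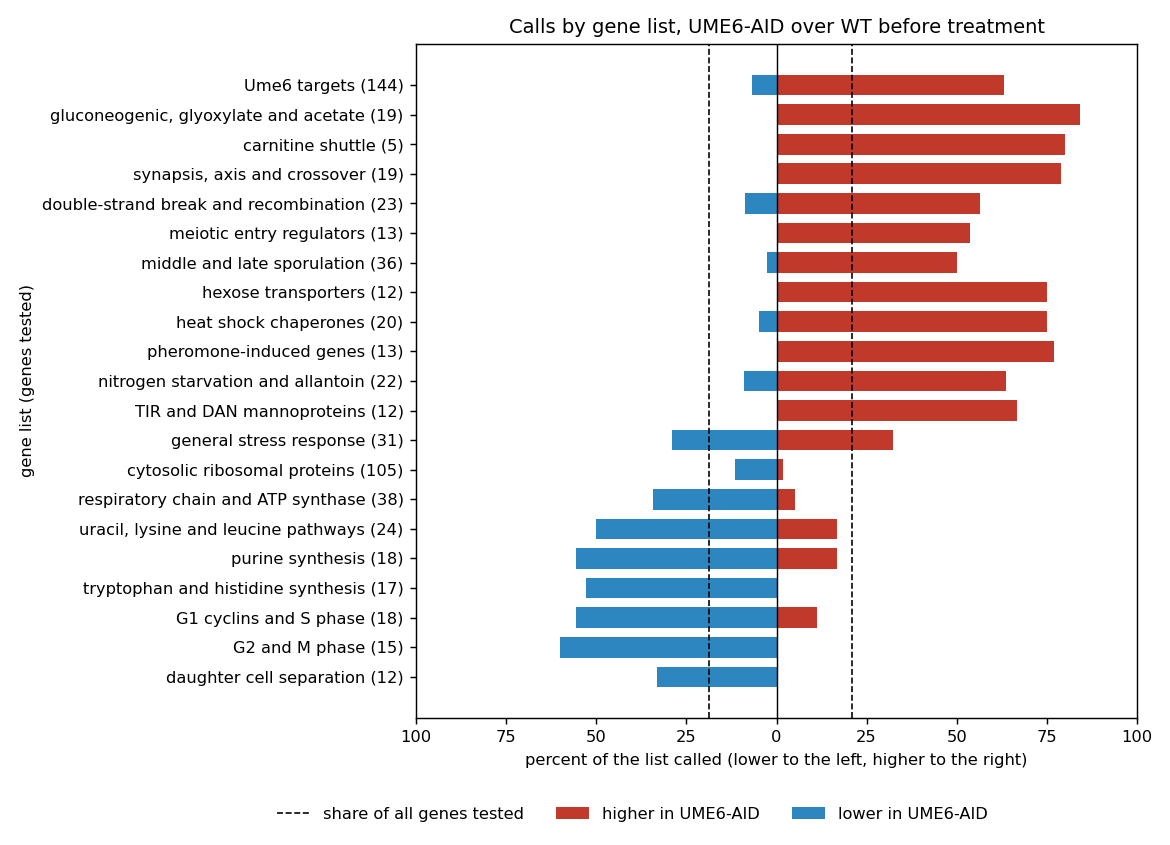
Share of each gene list called higher (bars to the right) or lower (bars to the left) in UME6-AID than in WT, in percent of the genes tested, whose number is in brackets; dashed lines mark the share over all genes tested, 21.0% higher and 18.8% lower. Lists such as the carbon-source, transporter and chaperone genes extend to the right, and lists such as G2 and M phase and tryptophan and histidine synthesis to the left.

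Hexose transporter genes were higher in 9 of 12 cases and lower in none, with a median of 1.31. Without UME6-AID replicate 1, 6 were higher, and with only the 2 groups in the fit 7 were. For this and the next lists, the shares over all genes tested were 21.0% higher and 18.8% lower. HXT4, a high-affinity glucose transporter, had 319, 316 and 350 TPM in UME6-AID, against 35.1, 27.2 and 31.2 TPM in WT (log2 fold change 3.35 ± 0.38, adjusted p = 1.44e-08). HXT2 had 2400, 1970 and 2840 TPM in UME6-AID, against 710, 722 and 865 TPM in WT, and HXT3, a low-affinity transporter, was at 1.92. SNF3, a glucose sensor, was at 0.94, and HXT5 at 1.89. Genes of poor nitrogen supply rose in 14 of 22 cases and fell in 2. AGP1, a broad amino-acid permease, had 302, 259 and 325 TPM in UME6-AID, against 62.2, 68.1 and 98.3 TPM in WT (1.92 ± 0.22), and MEP2, an ammonium permease, was at 1.41. TIR1, a cell-wall mannoprotein, had 77.7, 107 and 92.2 TPM in UME6-AID, against 12.8, 12.5 and 18.0 TPM in WT (2.64 ± 0.32), with 8 of 12 genes of its list higher and none lower. COS8, a subtelomeric gene and a target, was at 2.14.

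Chaperone genes of the heat shock response were higher in 15 of 20 cases and lower in 1, with a median of 0.48. SSA1, a cytosolic Hsp70 and a target, had 613, 637 and 672 TPM in UME6-AID, against 209, 203 and 249 TPM in WT (log2 fold change 1.49 ± 0.15, adjusted p = 2.64e-09). STI1, a cochaperone that links Hsp70 and Hsp90, had 501, 560 and 600 TPM in UME6-AID, against 305, 320 and 311 TPM in WT (0.78 ± 0.07), and SIS1, an Hsp40, was at 0.77. HSP82 was at 0.88. The general stress response did not move together, with 10 of 31 genes higher (32.3%) and 9 lower (29.0%). TMA10, a ribosome-associated protein of that list, had 145, 228 and 185 TPM in UME6-AID, against 18.8, 10.8 and 5.21 TPM in WT (3.81 ± 0.39). HSP12, a membrane-protecting stress protein, had 1.12, 0 and 2.08 TPM in UME6-AID, against 9.44, 18.3 and 10.9 TPM in WT (−3.38 ± 0.52, adjusted p = 3.90e-06), while ume6Δ had 288, 181 and 410 TPM. DDR48 fell by 0.53.

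Pheromone-induced genes were higher in 10 of 13 cases and lower in none, at a median of 0.64. PRM4 had 85.9, 138 and 92.2 TPM in UME6-AID, against 25.2, 25.6 and 22.2 TPM in WT (log2 fold change 2.03 ± 0.23). AGA1, the anchor of the a-agglutinin, had 143, 110 and 145 TPM in UME6-AID, against 29.9, 29.4 and 48.7 TPM in WT (1.86 ± 0.27), and AGA2, its a-cell partner, had 518, 465 and 492 TPM against 239, 192 and 199 TPM in WT. FUS1, a cell-fusion protein, was at 1.65 and BAR1, the α-factor protease, at 0.84. Of the 12 haploid-specific genes 4 were higher (33.3%) and 1 lower (8.33%), at a median of 0.14. For both lists the shares over all genes tested were 21.0% higher and 18.8% lower.

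Other genes among the 12 with the largest rise were ECM13, IMD2 and MPC3. ECM13 averaged 119 ± 5.92 TPM in UME6-AID and 8.47 ± 0.737 TPM in WT (SD, n = 3 each), with a log2 fold change of 3.78 ± 0.21 (adjusted p = 8.15e-16). Lack of overlap was a condition for these 12 genes. IMD2, an inosine monophosphate dehydrogenase that belongs to a family of similar copies, had 28.1, 37.3 and 36.4 TPM in UME6-AID, against 3.56, 2.04 and 1.96 TPM in WT (3.65 ± 0.42). MPC3, a subunit of the mitochondrial pyruvate carrier, had 57.7, 72.1 and 59.7 TPM in UME6-AID, against 8.18, 5.70 and 1.89 TPM in WT (3.42 ± 0.32).

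Of 18 genes of G1 and S phase, 10 were lower and 2 higher, and of 15 genes of G2 and M phase, 9 were lower and none higher, with medians of −0.28 and −0.33. The shares over all genes tested were 18.8% lower and 21.0% higher. CLB6, the early S-phase cyclin, had 3.07, 2.74 and 3.01 TPM in UME6-AID, against 15.3, 15.4 and 13.0 TPM in WT (log2 fold change −2.29 ± 0.17, adjusted p = 1.16e-12), the sharpest fall on both lists. SWI4, the DNA-binding subunit of the G1 activator SBF, had 20.8, 31.3 and 23.6 TPM in UME6-AID, against 41.9, 41.1 and 34.6 TPM in WT (−0.71 ± 0.10). CDC21, thymidylate synthase, fell by 0.73 and RFA1, the large subunit of replication protein A, by 0.62. ALK1, a mitotic kinase, had 32.9, 48.4 and 37.2 TPM in UME6-AID, against 69.8, 72.1 and 61.3 TPM in WT (−0.85 ± 0.09), and the daughter-cell glucanase gene DSE4 fell by 1.20.

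Some lists of biosynthesis genes held more lower than higher calls, where 18.8% of all genes tested were lower and 21.0% higher. Of 17 genes of tryptophan and histidine synthesis 9 were lower and none higher, of 24 of the uracil, lysine and leucine pathways 12 were lower and 4 higher, and of 18 purine and one-carbon genes 10 were lower and 3 higher. Of 25 genes of methionine and sulfur metabolism 4 were lower and 5 higher (2 and 9 without UME6-AID replicate 2, 3 and 8 without WT replicate 3), and of 16 of arginine metabolism 4 were lower and 4 higher. HIS4 had 110, 109 and 124 TPM in UME6-AID, against 175, 169 and 216 TPM in WT (log2 fold change −0.75 ± 0.11). GCV1, of the glycine cleavage complex, had 83.0, 81.7 and 77.6 TPM in UME6-AID, against 204, 204 and 198 TPM in WT (−1.36 ± 0.10), and GCV2 and GCV3 fell by 1.10 and 0.88. CHA1, a serine and threonine deaminase, had 41.1, 52.2 and 47.5 TPM in UME6-AID, against 109, 113 and 121 TPM in WT (−1.34 ± 0.09). LEU1 fell by 0.82, and ARG3, of the arginine list, by 1.02. TRP1, which came with the LexA cassette in UME6-AID, was lower too, and its part in these values was not tested.

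The remaining genes among the 12 with the sharpest fall were transcription factors, stress genes and a few without a clear group. CIN5, a stress-linked transcription factor, had 3.32, 5.21 and 3.10 TPM in UME6-AID, against 11.4, 11.5 and 8.42 TPM in WT (log2 fold change −1.55 ± 0.32). CBF1, a centromere and promoter-binding factor, had 29.3, 33.9 and 28.8 TPM in UME6-AID, against 71.3, 79.5 and 60.2 TPM in WT (−1.25 ± 0.11). ZEO1 had 1630, 1640 and 1640 TPM in UME6-AID, against 5060, 4700 and 2240 TPM in WT, so that WT replicate 3 lay well below the other WT libraries. HOR7, GRE2, YLR108C and YIL014C-A were each at −1.25.

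Of 105 cytosolic ribosomal protein genes 2 were higher and 12 lower, with a median of −0.11. Their lower count was 26 without UME6-AID replicate 1, 6 without UME6-AID replicate 2 and 24 without WT replicate 3. Of 63 ribosome biogenesis genes 7 were higher and 1 lower. Of 24 iron genes 10 were higher and 1 lower, of 12 copper and zinc genes 7 were higher and none lower, and of 14 phosphate genes 6 were higher and none lower. Glycogen and trehalose genes were higher in 7 of 20 cases and lower in 2, glycolytic genes in 3 and 2 of 25, and proteasome genes in 3 and 0 of 32. Over all genes tested 21.0% were higher and 18.8% lower. In the main fit the ribosomal protein, ribosome biogenesis, glycolytic and proteasome lists were below both shares. Without UME6-AID replicate 1, 885 of 5496 genes were lower, and without WT replicate 3, 1061 of 5496. In these 2 settings the ribosomal protein list was above the share of all genes that were lower.

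The pattern was read side by side in the other tagged strain, which shares the WT libraries. In UME6-AID LexO-TIR at −30 min, 86 targets were higher than in WT and 5 lower, with a median of 0.65, where 16.5% of all genes were higher and 14.1% lower. HOP2 had 5.94, 3.56 and 6.93 TPM there, REC8 had 5.97, 5.78 and 6.68 TPM, and HXT4 had 142, 233 and 171 TPM. Set directly against each other, UME6-AID and UME6-AID LexO-TIR differed in 13 genes: 3 higher (0.0547%) and 10 lower (0.182%), none of them a target. ICL2 was 0.93 higher in UME6-AID on the log2 scale (22.1 TPM on average, against 11.3 TPM in UME6-AID LexO-TIR), ECM13 0.95 higher, and ARG3 fell by 0.58. The largest, OPT2, an oligopeptide transporter, averaged 19.9 TPM in UME6-AID, 59.1 TPM in UME6-AID LexO-TIR and 18.4 TPM in WT. Several of the other lower genes have identifiers next to that of OPT2. VTH2 was counted under separate entries with identical values, and YIL172C/YOL157C/YJL221C had the same values as an unnamed gene, so the 10 are not all independent.

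In ume6Δ, also against the same WT libraries, 132 targets were higher and 3 lower, with a median of 1.98, where 27.5% of all genes were higher and 27.8% lower. The mating-type markers of these libraries went against their MATa entry: STE2 averaged 20.4 TPM and MF(ALPHA)1 48.1 TPM, and all 5 a-specific genes tested were lower than in WT. Values that rest on ume6Δ therefore carry that difference as well. Among the 132 targets, which were picked as higher in ume6Δ than in WT, UME6-AID stood at or above the ume6Δ level in 4. HED1 reached 6.38% of it, REC8 27.8%, AMA1 54.6% and ALD4, which is a target too, 114%. In ume6Δ, 7 of 12 hexose transporter genes were higher and 1 lower, and 6 of 20 chaperone genes higher and 2 lower, with medians of 0.76 and 0.02. HXT2 had 355, 420 and 414 TPM in ume6Δ, against 710, 722 and 865 TPM in WT.

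UME6-AID at 0 min, 30 min after ß-estradiol, was also set against WT. Here 74 targets were higher than in WT and 4 lower, with a median of 0.60, while 503 of the 5344 other genes were higher and 345 lower, against 1064 and 1023 at −30 min; 10.5% of all genes were higher and 6.36% lower. The difference between the times was not tested. REC8 had 5.01, 6.85 and 4.95 TPM at 0 min, close to its values at −30 min, and ZIP1 had 11.7, 10.2 and 12.6 TPM. TMA10 had 24.9, 14.3 and 14.5 TPM at 0 min, MDH2 had 50.9, 63.6 and 55.6 TPM, and CLB6 had 10.9, 12.7 and 14.2 TPM, all 3 genes well away from their levels at −30 min and near those in WT. HAP4 and PRM4 did not pass the test against WT at 0 min (adjusted p = 0.141 and 0.714). Of the 20 chaperone genes, 16 were higher than in WT at 0 min and 1 lower, with a median of 0.74. The G2 and M phase list also kept its falls, with 10 of 15 lower and none higher (median −0.40). Other lists did not: of 18 G1 and S phase genes 3 were higher and none lower at 0 min (median 0.06). Of 38 respiratory chain genes 1 was higher and 4 lower (median 0.01), and of 18 purine and one-carbon genes 1 was higher and 3 lower (median −0.01). Time and ß-estradiol cannot be told apart here, and the 0 min libraries were set against WT libraries with no later time point.

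**Figure D3:**
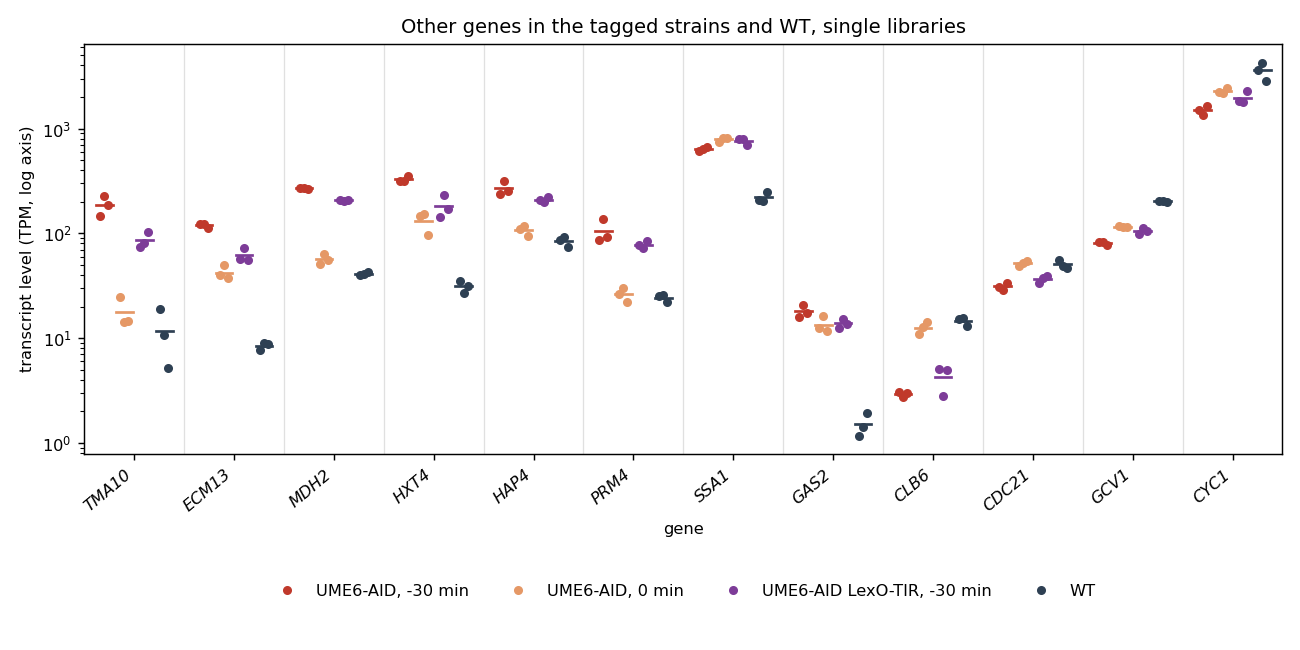
Transcript levels (TPM, log axis) of 12 genes in single libraries of UME6-AID at −30 min, UME6-AID at 0 min, UME6-AID LexO-TIR at −30 min and WT, from left to right for each gene; lines are means of 3. TMA10, MDH2 and CLB6 lie near WT at 0 min, whereas GAS2 and SSA1 lie apart from WT at both times.

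Depletion of Ume6 gave a comparison in separate libraries, UME6-AID LexO-TIR against UME6-AID after 15 min of auxin, in which 10.2% of all genes were higher and 10.5% lower. All 91 targets higher in UME6-AID than WT before treatment were among the 137 targets higher on depletion (66.4% of them); the list was chosen on depletion, which fixes this count in large part. Of the 1064 other genes higher in UME6-AID, 69 were also higher on depletion (6.48% of the 1064, and 16.3% of the 424 other genes higher on depletion), and 166 were lower. Of the genes other than targets that were lower in UME6-AID, 147 were higher on depletion. Across the 144 targets the 2 log2 fold changes had a Pearson r of 0.44 and a Spearman rho of 0.46, and across other genes −0.19 and −0.29. These are descriptions across genes that share libraries, not tests. HXT4, at 3.35 before treatment, was at −1.13 on depletion, and IMD2, at 3.65, was at −1.38, whereas HOP2 was at 3.37 and 3.68 and ECM11 at 3.42 and 2.92.

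**Figure D4:**
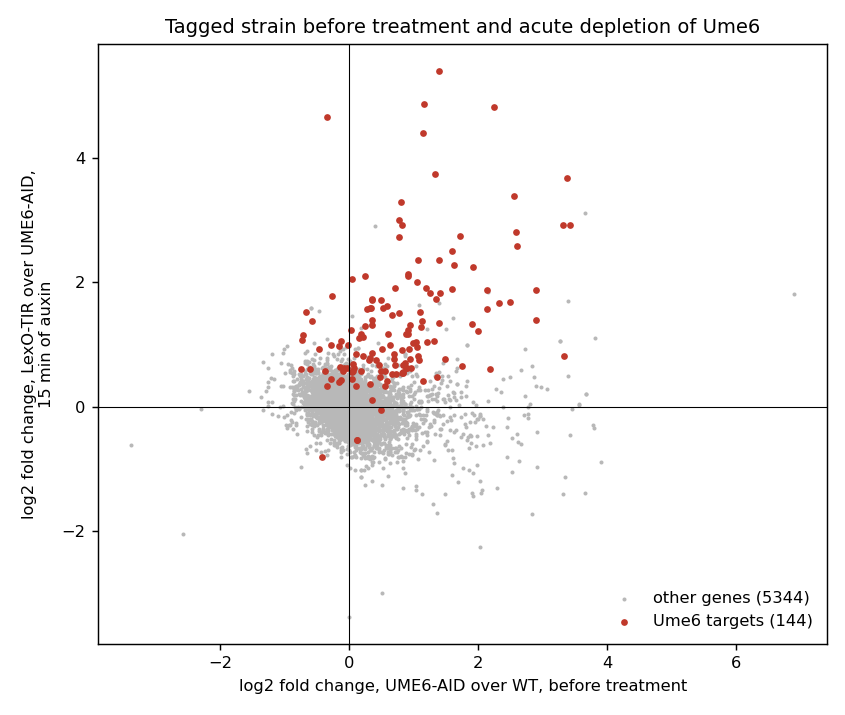
Log2 fold change of UME6-AID over WT before treatment (x axis) against that of UME6-AID LexO-TIR over UME6-AID after 15 min of auxin (y axis), for 144 Ume6 targets (red) and 5344 other genes (grey). Targets spread to the upper right, while genes far to the right that are not targets lie mostly around or below 0 on the y axis.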

How the data were processed

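The authors pseudoaligned single-end, poly(A)-selected reads to SK1 transcripts with kallisto (version not given in the sources used here) and deposited tables of estimated counts and of TPM, with 42 mitotic libraries and 5818 genes. Per the labels, HISAT2, SAMtools and StringTie were also among their tools. Estimated counts were rounded, and 5488 genes passed edgeR's filterByExpr. The main test was edgeR 4.0.16 (quasi-likelihood, TMM scaling, R 4.3.3), with the 42 libraries in 1 fit, Benjamini-Hochberg adjustment over all genes tested, and a call at an adjusted p below 0.05. The SE of a log2 fold change was derived from its size and the F statistic of that test. It rests on the spread shared over the 42 libraries, not only on the libraries compared. The deposited TPM are printed as levels. DESeq2 1.42.0 and limma 3.58.1 on log2(TPM + 1) and log2(TPM + 0.1) were alternatives. On simulated counts for these groups, edgeR recovered 90% of 100 genes changed by 1 on the log2 scale and 99% of 100 changed by 2, with 7 false calls over 5488 genes. Those counts were drawn independently for each gene from a common mean profile, with no shift shared by the genes of a library. They do not measure false calls in the real libraries, where some replicates stood apart. Replicates differed by more than sampling noise, so none was counted as a repeat. The study calls the replicates biological. The labels do not say that they were separate cultures, so p-values measure the spread between these libraries.

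The genes named are the altered loci and their neighbours, the early, middle and late meiotic genes the study follows, the 12 largest rises and the 12 largest falls with non-overlapping libraries and a mean log2 CPM of at least 2, and up to 4 members of each list with the smallest p. Others, among them MDH2, HXT2, HXT3, MLS1, PCK1, DSE4 and the genes that did not pass, were chosen after their values were seen. Members, lists and tests were chosen with earlier results of these data known. Columns of the authors' own comparisons were not used. Symbols came from RefSeq by systematic name for 5052 genes. SK1 coordinates were not used, and the promoter letters come from RefSeq build R64. 1 gene is not reported here.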

Additional observations from a re-analysis of the deposited data

Results flagged for a closer look

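By their listed genotypes UME6-AID and UME6-AID LexO-TIR differ by the OsTIR1 gene. They are separate strains, so OsTIR1 and any other difference between the isolates cannot be told apart. At −30 min 3 of the named genes differed between them by a direct edgeR test. The log2 fold change of UME6-AID over UME6-AID LexO-TIR was 0.93 for ICL2 (adjusted p = 0.00526), 0.95 for ECM13 (adjusted p = 0.0019) and −0.58 for ARG3 (adjusted p = 0.0408). ICL2 and ECM13 were higher than WT in both strains, at 3.40 and 3.78 in UME6-AID and 2.47 and 2.83 in UME6-AID LexO-TIR.

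UME6-AID replicate 1 held 30.3 CPM (counts scaled to the library total) in genes without a coding sequence, which no comparison here uses, against 0.406 to 2.25 in the other 14 libraries compared. It had 30 genes at 0, against 260 to 300 in those libraries, and 224 genes were above 0 in no other mitotic library, 222 of them without a coding sequence.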

How the results depend on the processing

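The count of targets higher in UME6-AID was 77 to 93 under every alternative run, and 84 to 89 with a replicate left out. The share of calls that were higher moved more, since 52.8% of calls were higher in the main fit. With a gene length correction 908 genes were higher and 1585 lower (36.4% of calls higher), and with limma on log2(TPM + 1) and log2(TPM + 0.1) 1168 and 1177 were higher and 668 and 671 lower (63.6% and 63.7%). Calls also varied with length: 12.9% of genes of 153 to 774 coding bases were higher and 22.3% lower, against 24.9% and 15.2% of genes of 1914 bases or more. With only the 2 groups in the fit, 740 genes were higher and 517 lower, and 5 targets were lower. With a log2 fold change past 0.6 the counts were 576 and 196, and 4 targets were lower. With a replicate left out, 942 to 1204 genes were higher and 833 to 1061 lower, and 6 to 11 targets were lower. Genes lower in UME6-AID LexO-TIR numbered 774, and 1233, 420, 423 and 462 under the length correction, both limma fits and the 2 groups alone, and 542 to 761 with a replicate left out. Genes lower in ume6Δ numbered 1523, and 2405, 830 and 833 under the length correction and the limma fits. The cause was not tested. Of 129 named genes 107 kept their direction and call throughout. SNQ2 (−0.02) turned to 0.03 in both limma fits, and to 0.09, 0.13 and 0.10 without UME6-AID replicate 2, WT replicate 3 or both UME6-AID replicate 1 and WT replicate 3, and SPS100 (−0.09) to 0.04, 0.12 and 0.06 in the same 3 settings. With a replicate left out they ranged between −0.11 and 0.13, and between −0.22 and 0.12. The last setting was chosen after seeing the data. Replicate numbers did not pair the libraries, as deviations of same-numbered libraries correlated at −0.25, 0.32 and 0.34, and with a replicate block 1185 genes were higher, 1079 lower, and the same 91 targets higher. Depth limits the lowest levels, since MEI5, SAE3 and HSP12 had libraries at 0.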
